A study of Homo sapiens with 18 samples.

Results

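Expression of TRAIL, its receptors and the proteins that carry its death signal was followed in SKOV-3 ovarian carcinoma cells before and after luteinizing hormone (LH). The genes were TNFSF10, which encodes the ligand TRAIL, TNFRSF10A, TNFRSF10B, TNFRSF10C, TNFRSF10D, TNFRSF11B, FAS, FADD, CASP8 and CFLAR. All probe sets of the array that list one of these symbols and no other were taken, whatever their level, which gave 41 probe sets out of 54613. They represent 10 of the 19775 genes that had a probe set of their own.

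SKOV-3 is an established human ovarian carcinoma line. The LHR- cells were the line without LH receptor, which the methods call the parent line and the figure legends call mock-transfected. The LHR+ cells had been stably transfected to express the LH receptor and received no LH, and the groups LH1, LH4, LH8 and LH20 were those transfected cells exposed to 50 ng/ml LH for 1, 4, 8 or 20 h. Each of the 6 groups had 3 arrays.

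The design has limits as a model. Whether the transfected cells were 1 clone or a pool, and which promoter drove the receptor, is not stated in the sources used here. The receptor therefore cannot be told apart from the transfection itself or from the cells that came out of it. Below, "with LHR" and "with LHR expression" only name the comparison of LHR+ with LHR- cells. All LH groups carry the transgene, no LHR- cells were given LH, and a single LHR+ group without LH served all times, so that time in culture and time with LH cannot be told apart. The replicates are described as independent without saying what was separate, and p-values measure the spread between these arrays.

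TRAIL is a membrane protein of the tumor necrosis factor family that can also be shed. It engages the death receptors TRAIL-R1 and TRAIL-R2, encoded by TNFRSF10A and TNFRSF10B, and the adaptor FADD then recruits procaspase-8 to the clustered receptors. The decoy receptors encoded by TNFRSF10C and TNFRSF10D lack a working death domain, TNFRSF11B encodes the secreted receptor osteoprotegerin, and cellular FLIP, the product of CFLAR, competes with caspase-8 at the receptor. FAS is the sister death receptor that answers to FAS ligand and uses the same adaptor and caspase. TRAIL is best known from natural killer and T cells, and its gene is a known target of interferons and of FOXO transcription factors.

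The gene TNFSF10 lies on the minus strand of chromosome 3, at chr3:172505508-172523430 in GRCh38.p14. Its proximal promoter is shown because TNFSF10 was the member with the largest changes. The 250 bases upstream of its start, at chr3:172523431-172523680, read 5′ to 3′ along the gene as follows, with a match to the interferon-stimulated response element and a TATA box in capitals, in that order.
TNFSF10 promoter: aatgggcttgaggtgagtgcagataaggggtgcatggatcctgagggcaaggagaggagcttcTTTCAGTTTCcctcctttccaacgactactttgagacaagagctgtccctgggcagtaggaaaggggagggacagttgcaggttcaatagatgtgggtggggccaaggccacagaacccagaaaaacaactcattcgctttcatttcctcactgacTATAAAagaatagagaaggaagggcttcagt

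The first match ended 177 bases before the start of the gene and lay on the opposite strand. The second ended 25 bases before the start. A total of 7 motifs were searched on both strands of 35116 human promoter windows of the same length. The interferon-stimulated response element, GAAA and GAAA with 2 bases of any kind between them, was found in 3.02% of them, the TATA box TATAAA in 10.7%, the cyclic AMP response element TGACGTCA in 1.65%, the AP-1 site TGANTCA in 6.57%, the FOXO site GTAAACA in 2.98%, the gamma-activated sequence TTCNNNGAA in 6.57% and the GC box GGGCGG in 42.6%. The last 5 were not matched in the TNFSF10 window, which says nothing of sites elsewhere. Of the 11 windows of FAS, FADD, CASP8 and CFLAR, none held an interferon-stimulated response element, a FOXO site or a cyclic AMP response element, while AP-1 matches stood in 1 window each of FAS, CASP8 and CFLAR. CFLAR and CASP8 are neighbours on chromosome 2, FAS lies on chromosome 10 and FADD on chromosome 11. The genes of the TRAIL receptors and of osteoprotegerin are on chromosome 8, and their promoters were not analysed here.

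Levels are probe set intensities on the linear scale of the deposited table, and fold changes are differences of mean log2(intensity + 1), which understates changes of dim probe sets. A probe set was called changed when limma gave p under 0.05 and an adjusted p under 0.1 over all 54613 probe sets, the fold was at least 2 and all 3 arrays of one group lay above all 3 of the other. Median intensity per array lay between 46.7 and 57.7, and 15 of the 18 arrays correlated best with an array of their own group. The table carries no detection calls, so a dim probe set cannot be called absent. Levels of different probe sets are not comparable, since each has its own probes.

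The epithelial and ovarian markers of the line, ERBB2, KRT8, KRT18, KRT19, PAX8 and EPCAM, were all measured. Their summed intensity was 15520 to 18699 on the arrays of LHR-, LHR+ and LH1, 18717 to 22009 at LH4 and LH8 and 26774 to 27568 at LH20. ERBB2 rose at LH20 against LHR+ (log2 fold change 1.29). EPCAM, an epithelial adhesion molecule, fell with LHR (-1.51). The probe set of the transfected gene, LHCGR, lay between 0.196 and 4.11 on every array and was not called between LHR+ and LHR- (0.15, limma adjusted p = 0.885). Where its probes lie relative to the transfected construct is not stated, so it does not check the labels.

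All comparisons of LH times with LHR+ use the same 3 LHR+ arrays, which LHR+/LHR- uses too, so their results are not independent of each other. Over the 9 comparisons, 29 of 369 tests were called, and they fell on 13 of the 41 probe sets and 5 of the 10 genes: TNFSF10, TNFRSF10B, TNFRSF11B, FAS and CFLAR. The other 28 probe sets had no call, among them all those of TNFRSF10A, TNFRSF10C, TNFRSF10D, FADD and CASP8. For LHR+/LHR-, 8 of the 41 were called, 2 up and 6 down, where 3.36% of all probe sets were called. At LH20 against LHR+, 7 were called, 4 up and 3 down, against 7.06% of all.

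The earlier LH times held few calls. At LH8 against LHR+, 1 member was called, beside 1.52% of all probe sets. None was called by limma at LH1 (0.482% of all called) or at LH4 (1.89%). At unadjusted p under 0.05 there were 5 members at LH1, where 7.07% of all probe sets passed, and 3 at LH4, where 14.9% passed. One-way ANOVA of the 2 compared groups also called 0 at both times, where it called 0.0696% of all probe sets at LH1 and 1.23% at LH4.

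Between consecutive LH times, limma called no member for LH4/LH1 (1.52% of all called) or LH8/LH4 (1.17%). At unadjusted p under 0.05 there were 9 for LH4/LH1, beside 13.6% of all, and 8 for LH8/LH4, beside 14%. ANOVA called 0 in both, where it called 0.828% and 0.485% of all probe sets, in the same order. Other settings of limma gave 1 call for LH4/LH1 with an offset of 16 (1.06% of all called) and 2 with an intensity trend (1.61%). They gave 3 among the brightest probe sets (2.13% of those), and 1 for LH8/LH4 with the replicate block (1.13% of all). For LH20/LH8, 4 were called, 3 up and 1 down (4.27% of all). Against the LHR- cells, LH20 had 9 calls, 4 up and 5 down (8.9% of all). The calls concentrate on several probe sets of one gene: with 1 probe set per gene, the count over the 10 genes was 3 for LHR+/LHR-, 2 for LH20/LHR+, 1 for LH20/LH8 and 2 for LH20/LHR-. Of all genes, 4.66%, 7.77%, 4.64% and 10.4% were called at that setting, in the same order.

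**Figure D1:**
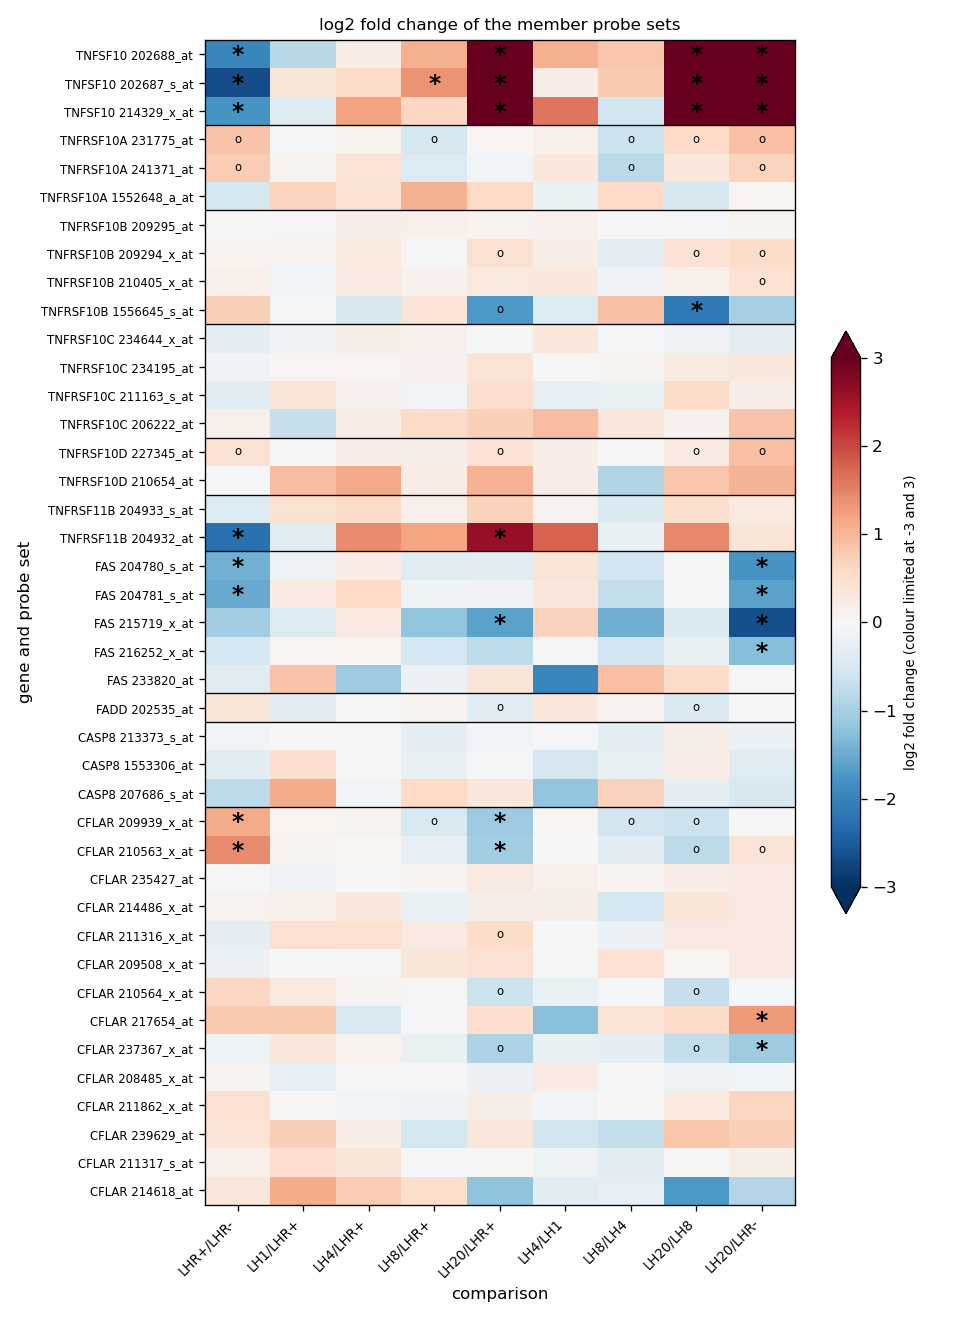
Log2 fold change of each of the 41 probe sets (rows, grouped by gene) in the 9 comparisons (columns), red above 0 and blue below it, with colour limited at -3 and 3. A star marks a called probe set and a circle one with an adjusted p under 0.1 that was not called. The 3 TNFSF10 rows at the top are blue for LHR+/LHR- and darkest red in the 3 columns for LH20.

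The median log2 fold change over the 41 probe sets stayed near that of all probe sets. It was -0.03 for LHR+/LHR-, where all probe sets had 0.02, and 0.18 for LH20/LHR+, where all had 0.00.

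TNFSF10 was low with LHR expression, stayed low for the first hours with LH and rose steeply by 20 h. Its brightest probe set, 202688_at, read 68.4, 65.8 and 60.3 in LHR- cells, 24.9, 8.27 and 19.6 in LHR+ cells, and 14.8, 5.13 and 8.01 at LH1. It read 19.0, 21.1 and 17.1 at LH4, 36.0, 23.7 and 49.2 at LH8, and 1252, 1713 and 1598 at LH20. The lowest LH20 array lay far above the highest of every other group, and the LHR- arrays lay above every array of the 4 groups from LHR+ to LH8. Of neighbours in the order LH20, LHR-, LH8, LH4, LHR+, LH1, only LH4 with LHR+ and LHR+ with LH1 overlapped.

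With LHR expression, 202688_at fell by 1.95 on the log2 scale, a 3.86-fold difference (SE 0.38, limma adjusted p = 0.00632). Its mean was 17.6 ± 8.48 in LHR+ and 1521 ± 240 at LH20 (SD over 3 arrays). At LH20 against LHR+ it rose by 6.47 (SE 0.38, 95% interval 5.64 to 7.29, limma adjusted p = 1.30e-07), a fold of 88.6. At LH20 it also stood 22.9-fold above the LHR- cells (log2 4.52, limma adjusted p = 1.67e-06). In bulk samples a change in the RNA of each cell and a change in the share of cells that make it cannot be told apart.

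The other TNFSF10 probe sets moved the same way. Probe set 202687_s_at read 78.5, 90.2 and 78.7 in LHR-, 20.4, 18.0 and 4.73 in LHR+, and 1076, 1200 and 1296 at LH20. Its log2 fold change was -2.65 for LHR+/LHR- and 6.48 for LH20/LHR+. No LHR+ array reached the LHR- arrays, and no array of another group came near LH20.

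Probe set 214329_x_at read 38.4, 79.4 and 55.7 in LHR-, 16.01, 19.7 and 11.7 in LHR+, and 947, 1305 and 971 at LH20. Its log2 fold changes were -1.77 and 6.01, in the same order. The suffix _x_at marks probes that may also match other transcripts. Its LH4 arrays disagreed, with 99.6 on replicate 1 against 20.7 and 24.1, and they overlapped both LHR- and LH8. Over the 18 arrays, the 2 probe sets correlated with 202688_at at r = 0.952 and 0.929, which the LH20 arrays carry in large part.

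**Figure D2:**
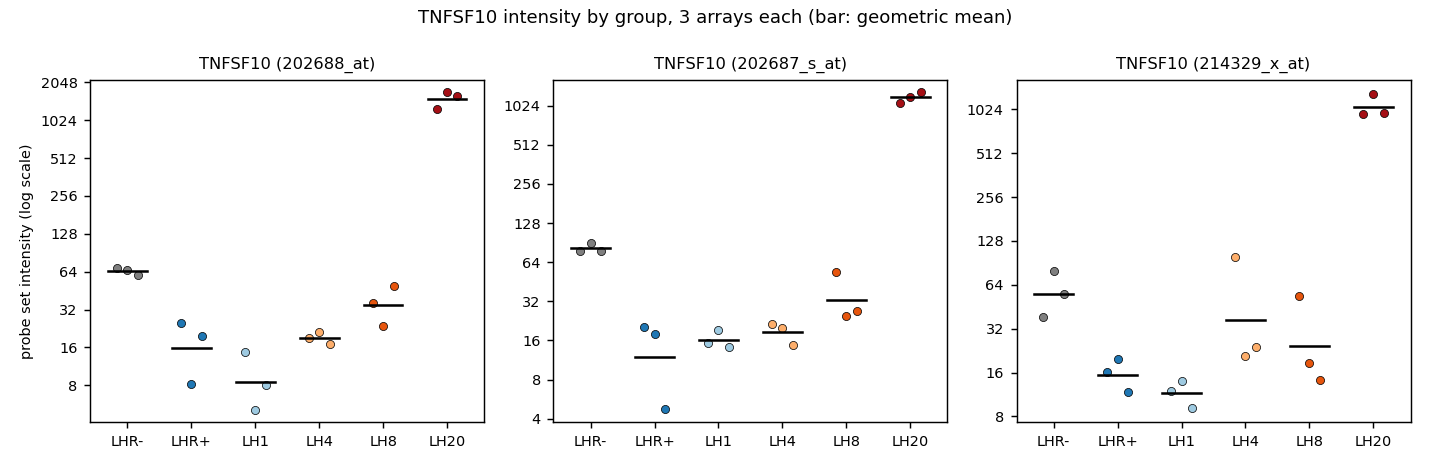
Intensity of the 3 TNFSF10 probe sets (vertical axis, log scale) on the 3 arrays of each of the 6 groups (horizontal axis), with the geometric mean as a bar. All 9 points of LH20 lie between 947 and 1713 and all other points lie at or below 99.6.

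Most of the increase came between 8 and 20 h. LH20 against LH8, which tests the step itself, gave log2 differences of 5.40 for 202688_at, 5.13 for 202687_s_at and 5.39 for 214329_x_at (limma adjusted p at most 3.74e-05). These were the 3 largest rises of all 54613 probe sets in that comparison, and the same 3 were the largest for LH20/LHR+.

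The earlier steps were small and uneven. For LH8/LHR+, 202687_s_at was called, with 53.7, 24.7 and 26.9 at LH8 (log2 1.36, SE 0.41, limma adjusted p = 0.0942). Probe set 202688_at had 1.07 (adjusted p = 0.167), with the LH8 array at 23.7 just under the LHR+ array at 24.9. Probe set 214329_x_at had 0.62 (adjusted p = 0.663). The call at LH8 did not survive leaving out LHR+ replicate 3, which gave 0.75, nor any of the 3 LH8 arrays in turn, which gave 1.013 to 1.56.

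The fall of TNFSF10 with LHR was less secure than the rise at LH20. With only the LHR- and LHR+ arrays in the fit, the adjusted p was 0.107 for 202688_at and 0.103 for 202687_s_at, and by one-way ANOVA it was 0.159 and 0.158. For 214329_x_at the call was lost on leaving out LHR- replicate 2 or 3 or any LHR+ array, with log2 fold changes from -1.94 to -1.52, and by ANOVA (adjusted p = 0.129). The rise at LH20 was called for all 3 probe sets under every alternative tried, but its size depends on the dim LHR+ values. With an offset of 16 the log2 fold changes for LH20/LHR+ were 5.54 for 202688_at, 5.35 for 202687_s_at and 5.09 for 214329_x_at.

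Markers of leukocytes and NK cells, the usual makers of TRAIL, were at the bottom of the scale in these cultures. Over PTPRC, CD3E, CD14, KLRD1, NKG7 and GNLY, none of which was called, the highest single value was 28.5. The summed intensity of the 6 was 41.1 to 76.5 in LHR-, 24.3 to 39.4 in LHR+, 22.7 to 66.0 at LH1, 33.9 to 81.6 at LH4, 46.9 to 63.8 at LH8 and 41.8 to 65.1 at LH20. CD3E, the T cell receptor subunit, lay between 0.386 and 14.2. The part of such cells in the TNFSF10 result was not tested.

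Of the 3 fibroblast markers, 2 had a call and THY1 had none. PDGFRA, a growth factor receptor, rose at LH20 (log2 1.83 against LHR+) and PDGFRB rose with LHR (1.04). The summed intensity of the 3 was 130 to 152 in LHR-, 220 to 302 in LHR+, 305 to 336 at LH1, 265 to 362 at LH4, 243 to 295 at LH8 and 311 to 368 at LH20. Their part in the TNFSF10 result was not tested.

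TNFRSF10A, which encodes TRAIL-R1, stood higher in every transfected group than in LHR- cells by the means of its brightest probe set, each by less than 2-fold. This probe set, 231775_at, read 129, 124 and 149 in LHR-, 260, 200 and 278 in LHR+, and 242, 259 and 211 at LH1. It read 256, 253 and 282 at LH4, 190, 148 and 168 at LH8, and 275, 259 and 227 at LH20. All 3 LH8 arrays lay below all 3 LHR+ and all 3 LH20 arrays.

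The log2 difference of 231775_at for LHR+/LHR- was 0.86 (SE 0.14, limma adjusted p = 0.00213), a fold of 1.82, which is under the threshold of 2. For LH8/LHR+ it was -0.54 (adjusted p = 0.0596) and for LH20/LH8 0.59 (adjusted p = 0.0161). LH20 against LHR+ gave 0.05, with a 95% interval of -0.26 to 0.36. Probe set 241371_at gave 0.75 for LHR+/LHR- and -0.41 for LH8/LHR+, the latter with an adjusted p of 0.343. The dim probe set 1552648_a_at lay between 9.66 and 68.2 and had no call, and its LHR+ mean of 31.5 was below its LHR- mean of 39.8.

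TNFRSF10B, which encodes TRAIL-R2, moved by less than 2-fold on its brightest probe set. The probe set 209295_at lay in the brightest part of the array, at the 98.7th percentile of all probe sets. It read 7042, 7454 and 6843 in LHR-, 6973, 6765 and 7492 in LHR+, and 7515, 7695 and 7689 at LH20, and its highest value anywhere was 8238, at LH4. LHR- and LHR+ overlapped, and the 3 LH20 arrays lay above the 3 LHR+ arrays by a few percent.

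The log2 differences of 209295_at were -0.01 for LHR+/LHR- (95% interval -0.19 to 0.17) and 0.11 for LH20/LHR+ (-0.07 to 0.29), so that a change of 2-fold lies outside both intervals. The probe set 209294_x_at read 204, 188 and 214 in LHR+ and 285, 273 and 268 at LH20, a log2 difference of 0.45 (limma adjusted p = 0.0312) that was not called. The probe set 210405_x_at had no test past the adjusted threshold against LHR+. The 4th probe set, 1556645_s_at, was dim and went the other way at LH20/LH8, where it was called down.

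On 1556645_s_at the 3 LH8 arrays read 33.9, 51.2 and 55.5 and the 3 LH20 arrays 24.9, 6.34 and 5.73. The log2 fold change was -2.11 (SE 0.55, limma adjusted p = 0.0217). The call was lost with only those 2 groups in the fit (adjusted p = 0.124) and by ANOVA (0.18). Against LHR+ it had -1.72 at LH20, with overlapping groups, while the other 3 probe sets of TNFRSF10B had 0.11 to 0.45.

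TNFRSF10C, which encodes a decoy receptor anchored in the membrane by a lipid tail, was dim on all 4 of its probe sets, with values from 0.984 to 58.9. None was called in any comparison, and every pair of neighbouring groups overlapped on each. These values cannot tell low expression from none.

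TNFRSF10D, the decoy with a shortened death domain, was higher with LHR and higher again at LH20, by less than 2-fold at each step. On probe set 227345_at the arrays read 1224, 1292 and 1237 in LHR-, 1650, 1773 and 1771 in LHR+, and 1752, 1682 and 1736 at LH1. It read 2055, 1977 and 1915 at LH4, 2049, 1772 and 2084 at LH8, and 2232, 2398 and 2437 at LH20. The LHR- arrays lay below all others and the LH20 arrays above all others, while LH4 and LH8 lay above LH1, and LH4 above LHR+.

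The log2 difference of 227345_at was 0.47 for LHR+/LHR- (SE 0.09, limma adjusted p = 0.00399) and 0.44 for LH20/LHR+ (adjusted p = 0.00215). The sum of both steps, LH20/LHR-, was 0.91 (95% interval 0.73 to 1.10, adjusted p = 4.43e-06), a fold of 1.88. The second probe set of TNFRSF10D, 210654_at, lay between 2.74 and 29.1 and had no test past the adjusted threshold.

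TNFRSF11B, the osteoprotegerin gene, was lower in LHR+ than in LHR- and at LH20 on 1 of its 2 probe sets, at the bottom of the scale. Probe set 204932_at read 26.5, 26.3 and 11.7 in LHR-, 7.25, 0.971 and 4.49 in LHR+, and 33.9, 24.8 and 21.7 at LH20. It fell by 2.25 on the log2 scale with LHR (limma adjusted p = 0.0325) and rose by 2.61 at LH20 against LHR+ (adjusted p = 0.00597). It was higher by 1.41 at LH4 already, without overlap but not called (limma adjusted p = 0.265). TNFSF10 214329_x_at was likewise higher at LH4 without overlap and not called (1.20, limma adjusted p = 0.326). TNFSF10 202688_at (0.23) and 202687_s_at (0.56) overlapped LHR+ there. For TNFRSF11B 204932_at, the step LH20/LH8, 1.43, was not called (adjusted p = 0.142), and LH20/LHR- was 0.37 (adjusted p = 0.742). LHR+ overlapped neither LHR- nor LH20, while LHR- and LH20 overlapped each other. The values are near the offset and with an offset of 16 the differences were -0.87 and 1.08.

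The other probe set of TNFRSF11B, 204933_s_at, was not called. It read 26.9, 29.0 and 23.0 in LHR+ and 48.7, 32.7 and 49.0 at LH20. The call of 204932_at for LHR+/LHR- was lost without LHR- replicate 1 (-2.06), LHR- replicate 2 (-2.06) or LHR+ replicate 2 (-1.65). It was also lost with those 2 groups alone (adjusted p = 0.188), by ANOVA (0.259) and with no offset (0.108).

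FAS, the receptor of FAS ligand, fell with LHR expression, and no rise with LH was called. Probe set 204780_s_at read 268, 308 and 250 in LHR-, 69.1, 119 and 124 in LHR+, and 63.5, 101 and 116 at LH1. It read 129, 129 and 99.4 at LH4, 79.7, 89.7 and 68.1 at LH8, and 72.0, 71.5 and 97.2 at LH20. The LHR- arrays lay above all others, and the transfected groups overlapped from one neighbour in the order to the next.

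The log2 fold change of 204780_s_at was -1.44 for LHR+/LHR- (SE 0.25, limma adjusted p = 0.00302), a 2.71-fold fall, and -1.77 for LH20/LHR- (adjusted p = 0.000169). LH20 against LHR+ gave -0.34 (95% interval -0.88 to 0.20). FAS 204781_s_at read 71.0, 66.0 and 80.2 in LHR- and 19.1, 21.8 and 36.3 in LHR+, with -1.51 and, for LH20/LHR-, -1.60. Its LHR+/LHR- call was lost without LHR- replicate 3 (-1.43), LHR+ replicate 1 (-1.33) or LHR+ replicate 2 (-1.42), and by ANOVA the adjusted p was 0.124 for 204780_s_at and 0.113 for 204781_s_at. The LH20/LHR- call of 204781_s_at was also lost by ANOVA (0.122).

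Another 2 FAS probe sets with the suffix _x_at were lower at LH20 than in LHR- cells. FAS 215719_x_at read 48.7, 56.4 and 44.8 in LHR-, 25.8, 26.7 and 19.5 in LHR+, and 7.12, 6.11 and 8.20 at LH20, without overlap between the 3 groups. It was called down at LH20 against LHR- (-2.65) and against LHR+ (-1.61, limma adjusted p = 0.0181), the latter not with an offset of 16 (-0.79). FAS 216252_x_at was called for LH20/LHR- alone (-1.28, and -0.75 with an offset of 16, where it was not called), and 233820_at, at 0.678 to 25.2, had no call. For FAS, 4 of 5 probe sets were therefore called down at LH20 against LHR- and 1 of 5 at LH20 against LHR+.

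**Figure D3:**
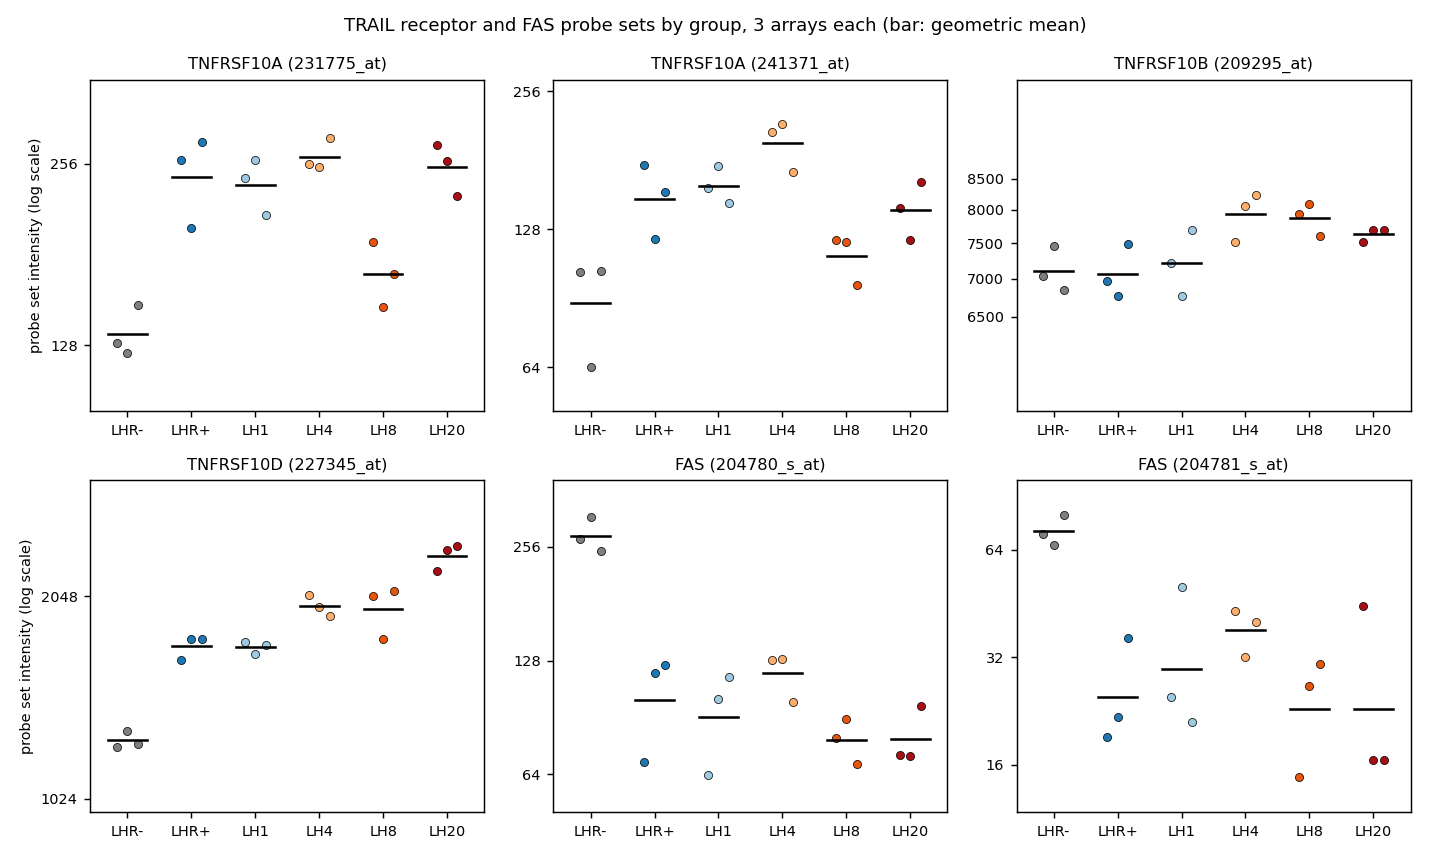
Intensity of 2 TNFRSF10A, 1 TNFRSF10B, 1 TNFRSF10D and 2 FAS probe sets (vertical axes, log scale, each panel with its own range) on the 3 arrays of each group, with the geometric mean as a bar. The LHR- points are the lowest for TNFRSF10D and the highest for both FAS probe sets, and TNFRSF10B stays between 6765 and 8238.

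FADD, the adaptor that links the death domain to procaspase-8, had 1 probe set. Probe set 202535_at read 497, 450 and 543 in LHR-, 581, 703 and 632 in LHR+, and 495, 531 and 484 at LH1. It read 764, 574 and 567 at LH4, 659, 748 and 613 at LH8, and 512.2, 486 and 485 at LH20. LH1 and LH20 lay wholly below LHR+, and LH20 overlapped LHR-.

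The log2 difference of FADD was -0.36 for LH20/LHR+ (SE 0.13, limma adjusted p = 0.0675) and -0.44 for LH20/LH8 (adjusted p = 0.0403), both under 2-fold. For LH1/LHR+ it was -0.34 (adjusted p = 0.540). FADD was not called in any comparison.

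CASP8, the initiator caspase of the pathway, gave no test past the adjusted threshold. Probe set 213373_s_at read 1270, 1409 and 723 in LHR-, 1074, 1007 and 995 in LHR+, 738, 989 and 830 at LH8, and 1101, 1003 and 806 at LH20. LHR- replicate 3 lay well below the other 2 arrays of its group and widened every interval. The log2 difference was -0.09 for LHR+/LHR- (95% interval -0.57 to 0.39) and -0.09 for LH20/LHR+ (-0.57 to 0.39). The 2 dim CASP8 probe sets, 1553306_at and 207686_s_at, lay between 3.66 and 57.6.

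CFLAR, the gene of the caspase-8 inhibitor cellular FLIP, had 14 probe sets, and they did not move together. On 2 of them the level rose with LHR and fell by LH20. Probe set 209939_x_at read 587, 577 and 543 in LHR-, 1300, 1109 and 1284 in LHR+, and 1335, 1363 and 1146 at LH1. It read 1193, 1371 and 1432 at LH4, 941, 844 and 904 at LH8, and 627, 625 and 481 at LH20. LHR+, LH1 and LH4 overlapped, LH8 lay below them without overlap and LH20 lower still, where it overlapped LHR-.

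The log2 fold change of 209939_x_at was 1.11 for LHR+/LHR- (SE 0.12, limma adjusted p = 8.48e-05) and -1.10 for LH20/LHR+ (adjusted p = 3.28e-05). LH20 against LHR- was 0.01, and LH8/LHR+ was -0.46 (adjusted p = 0.0639), which is under 2-fold. Probe set 210563_x_at read 312, 288 and 277 in LHR-, 781, 730 and 835 in LHR+, 616, 657 and 694 at LH8, and 374, 370 and 397 at LH20. Its log2 fold changes were 1.42 for LHR+/LHR- and -1.04 for LH20/LHR+, and it stayed above LHR- at LH20 by 0.38 (adjusted p = 0.0209). Both correlated over the 18 arrays at r = 0.932.

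Both falls of CFLAR lie close to the 2-fold threshold. Without LH20 replicate 3 the fall of 209939_x_at was 0.97 in size (log2 -0.97), and without LHR+ replicate 3 that of 210563_x_at was -0.99, so that each was no longer called. The latter was also -0.99 after quantile normalization. The adjusted p stayed at most 0.0226 for the first and 0.00925 for the second under all alternatives.

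The other bright CFLAR probe set, 235427_at, did not follow. It read 460, 500 and 388 in LHR-, 414, 446 and 478 in LHR+, and 521, 602 and 489 at LH20. The log2 differences were -0.01 for LHR+/LHR- (95% interval -0.41 to 0.40) and 0.27 for LH20/LHR+ (-0.14 to 0.67), and the second interval does not reach the falls of the other 2. Which FLIP isoforms each probe set reads is not given in the table.

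Some dimmer CFLAR probe sets had differences at LH20 against LHR+ that passed the adjusted p but were under 2-fold. They were -0.93 for 237367_x_at (limma adjusted p = 0.00299), -0.65 for 210564_x_at (0.0717) and 0.55 for 211316_x_at (0.0940). Of these, 210564_x_at had 0.62 for LHR+/LHR- (0.150) and correlated with 209939_x_at at r = 0.769 over the 18 arrays.

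Another 2 CFLAR probe sets had a call, each for LH20/LHR- only and in opposite directions. Probe set 237367_x_at read 127, 114 and 87.3 in LHR- and 64.8, 43.7 and 47.7 at LH20 (log2 -1.06), and the call was lost without LHR- replicate 1 (-0.95) or LH20 replicate 2 (-0.95), and with an offset of 16 (-0.88). Probe set 217654_at read 58.2, 44.1 and 64.7 in LHR- and 201, 101 and 121 at LH20 (1.28), and its call was lost without LHR- replicate 2 (1.13) or LH20 replicate 1 (1.00). The remaining 9 CFLAR probe sets ranged from 0.181 to 485 and had no call in any comparison.

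**Figure D4:**
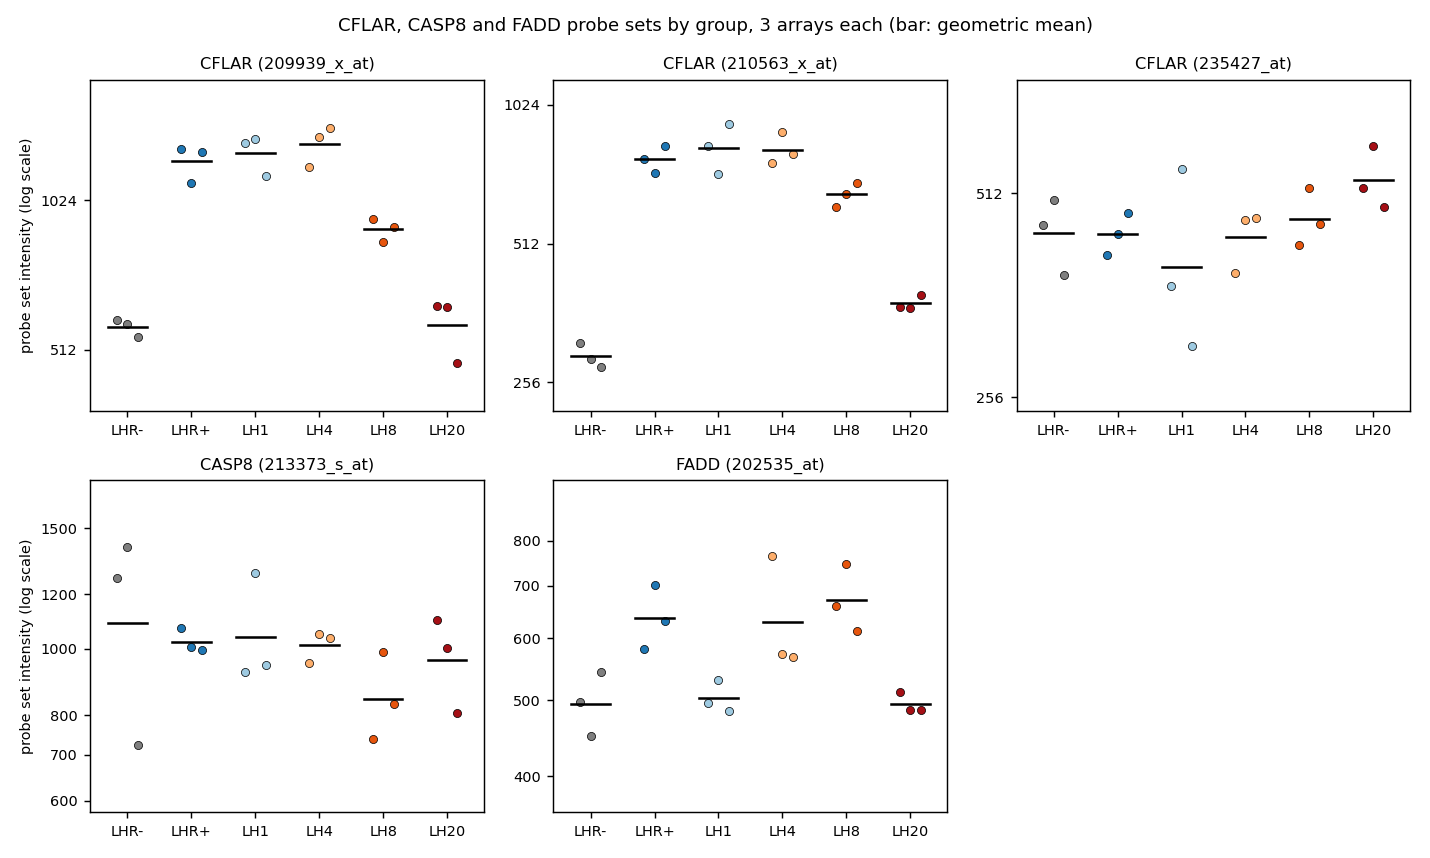
Intensity of 3 CFLAR probe sets and of 1 each of CASP8 and FADD (vertical axes, log scale, each panel with its own range) on the 3 arrays of each group, with the geometric mean as a bar. On the first 2 CFLAR panels LHR+, LH1 and LH4 form a plateau above LHR-, LH8 lies lower and LH20 lowest of the transfected groups, and the panel of 235427_at shows no such plateau.

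Other genes of the pathway were read from their brightest probe set, 1 per gene, so that the background is a share of 19775 genes. Of 42 other death signaling genes 38 were measured, and with LHR 2 rose and 1 fell, where 4.22% of all genes were called. TNFRSF21, which encodes death receptor 6, rose (log2 1.21), as did GALNT14 (1.56), whose product adds sugars to death receptors. GALNT3, a related glycosyltransferase, fell (-1.85).

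With LH, 1 of the 38 was called at LH8, GALNT3 (1.30), beside 1.47% of all genes. For LH20/LHR+, 1 rose and 1 fell, beside 7.45% of all genes. GALNT3 rose (1.53) and CYCS, the cytochrome c gene of the mitochondrial branch, fell (-1.03, from a mean intensity of 4162 ± 207 to 2038 ± 79.0, SD over 3 arrays). The median log2 fold change of the 38 was 0.18 at LH20.

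Of 15 other TNF superfamily ligand genes 13 were measured. For LH20/LHR+, limma called 0 of them, beside 7.45% of all genes, with a median log2 fold change of 0.23. An unadjusted limma p under 0.05 was reached by 2 of them, beside 29.3% of all probe sets, which is not a share of genes. Of 20 other TNF receptor superfamily genes 19 were measured, and 2 fell at LH20 against LHR+: TNFRSF12A (-1.46), the TWEAK receptor gene, and the dim TNFRSF13C (-2.54), the BAFF receptor gene. Of all genes, 3.74% were called down there. With LHR, TNFRSF19 fell (-2.17), and it was the single call of that list, where 4.22% of all genes were called.

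Ligands of NK cell receptors were followed because NK cells carry TRAIL. Of 15 genes 13 were measured. With LHR, ULBP2, a ligand of the activating receptor NKG2D, fell (-1.32) and was the single call, where 4.22% of all genes were called. At LH20 against LHR+, 2 fell and none rose: PVR (-1.46), which NK cells recognize through DNAM-1, and NCR3LG1 (-1.15), the ligand of NKp30. Of all genes, 7.45% were called there and 3.74% were called down. PVR went from a mean of 2257 ± 229 in LHR+ to 823 ± 101 at LH20 (SD over 3 arrays).

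Interferon-stimulated genes were examined since TNFSF10 is one itself, and 24 of 26 were measured. With LHR, 4 fell and none rose, where 4.22% of all genes were called and 1.88% called down. The 4 were IFIH1 (-3.63), an RNA sensor, GBP1 (-2.91), a guanylate-binding protein, IFI44 (-1.45) and IFIT3 (-1.03), an antiviral protein. The median log2 fold change of the 24 was -0.34, beside 0.00 for all genes.

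At LH4, ISG15, a ubiquitin-like modifier, rose (2.02) and IFIT2 fell (-1.27), where 1.99% of all genes were called. At LH8 the same 2 were called, with 1.53 and -1.38, where 1.47% of all genes were called. At LH20 against LHR+, IFIT1 rose (1.17) and IRF1, an interferon-responsive transcription factor, fell (-1.14). The counts for the interferon list at LH20 were thus 1 up and 1 down of 24, beside 7.45% of all genes called, with a median of 0.32.

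Of the 15 FOXO factors and target genes, all were measured. With LHR, 2 fell, BCL2L11 (-1.26), a pro-apoptotic BCL2 family gene known as BIM, and KLF2 (-1.06), a transcription factor. Of all genes, 4.22% were called in that comparison and 1.88% were called down. At LH1, BCL6, a transcriptional repressor, rose (1.09) and was the only call, where 0.319% of all genes were called. At LH20 against LHR+, 7 of 15 were called, all up, where 7.45% of all genes were called and 3.72% called up. The list median was 0.55 beside 0.00 for all genes.

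The 4 largest of the 7 were BCL2L11 (1.70), BCL6 (1.403), FOXO4 (1.38) and PDK4 (1.35), a kinase that restrains pyruvate dehydrogenase. BCL2L11 had a mean of 613 ± 51.1 in LHR-, 255 ± 17.8 in LHR+, 266 ± 12.3 at LH8 and 831 ± 61.9 at LH20 (SD over 3 arrays). No set test was run on any of these lists, and their members were not chosen independently of these data.

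The genes most like TNFSF10 over the 18 arrays were named by Pearson correlation with 202688_at, among the 1880 genes whose group means spanned at least 2 on the log2 scale. The 8 closest were H2AC6 (r = 0.958), YPEL3 (0.956), ERICH2-DT (0.948), TDRD6 (0.946), CFB (0.936), ANXA10 (0.929), ST8SIA4 (0.909) and LMO1 (0.901). All arrays of a group share their treatment, and the correlations rest in large part on the 3 LH20 arrays, so they are given as a description. All 8 were called up at LH20 against LHR+.

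The rises of these genes at LH20 against LHR+ were smaller than that of TNFSF10. They were 4.10 for ANXA10, an annexin, 3.27 for ST8SIA4, a polysialyltransferase, 2.77 for CFB, complement factor B, and 1.68 to 2.43 for the other 5. ANXA10 was the one gene of the 8 that was also called at LH8 (1.47). None of the 8 was called down with LHR, where their log2 differences ran from -0.99 to -0.31.

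**Figure D5:**
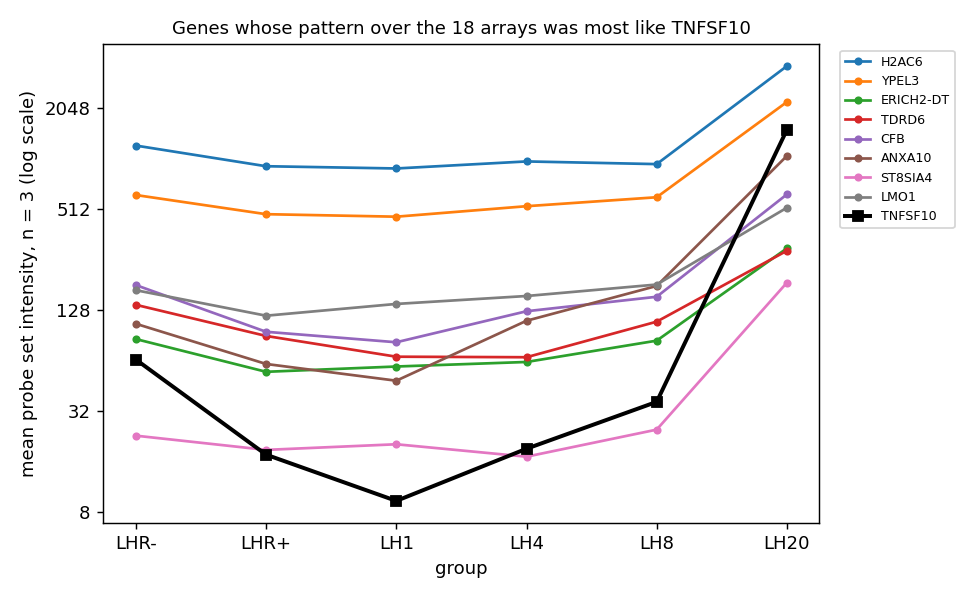
Mean intensity over the 3 arrays of each group (vertical axis, log scale; groups on the horizontal axis) of TNFSF10, probe set 202688_at, in black and of the 8 genes whose pattern correlated best with it. Every line has its highest point at LH20, and that of TNFSF10 spans the widest range, from 9.32 at LH1 to 1521 at LH20; heights of different genes are not comparable.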

How the data were processed

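The deposited table holds linear probe set intensities made by the authors from NuGEN-amplified cDNA on Affymetrix U133 Plus arrays. For the summary of probes, PLIER is named in the labels and RMA in the paper. Versions, background settings and the scaling of arrays are not given in the sources used here. The 62 control rows were left out. Symbols were updated with RefSeq (GRCh38.p14), and 41091 of 54613 probe sets list 1 gene, 1801 several and 11721 none.

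Intensities were taken as log2(value + 1) and fitted with limma 3.58.1 in R 4.3.3 (1 mean per group, 18 arrays, default eBayes), without further normalization, filter or replicate block. Thresholds follow the paper's methods. Its ANOVA and Mann-Whitney tests were replaced by limma. The exact two-sided Mann-Whitney p over 3 arrays against 3 has a minimum of 0.1. ANOVA has no such minimum and was run as an alternative. P-values were adjusted by Benjamini-Hochberg over all probe sets of a comparison. The script was tested on simulated data. Alternatives were other offsets, normalizations, filters, tests, a replicate block and leaving out each array, with the setting of no offset chosen after seeing the data.

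Members and lists were chosen with earlier results of these data known. Named genes were all members, markers, up to 4 called genes per list, direction and comparison, and the 8 likest genes. Listed genes without a probe set of their own were not analysed here. Promoter sequence is from RefSeq, read with Python 3.11.15, and figures used matplotlib 3.10.9.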

Additional observations from a re-analysis of the deposited data

Results flagged for a closer look

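A total of 4 results stood out because the LH effect differed between consecutive times by a test of the difference itself (limma, LH20 against LH8, adjusted p under 0.1) and the difference was also at least 2-fold with all arrays separated. Another 8 of the 12 member probe sets with an adjusted p under 0.1 in that comparison did not meet those further conditions. Of all probe sets, 17% had an adjusted p under 0.1 there and 4.27% were called. The 4 fall on 2 genes. The 4 results are the 3 TNFSF10 probe sets, with log2 differences of 5.40 (202688_at), 5.13 (202687_s_at) and 5.39 (214329_x_at), and TNFRSF10B 1556645_s_at with -2.11. The first 3 were higher on all 3 LH20 arrays than on all 3 LH8 arrays, and the last was lower on all 3. That last probe set is dim, and its call was lost with only those 2 groups in the fit and by ANOVA. The other TNFRSF10B probe sets had -0.04 (209295_at), 0.44 (209294_x_at) and 0.14 (210405_x_at) in that comparison.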

How the results depend on the processing

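None of the 29 called fold changes of the members changed sign under any alternative tried. The counts of called members moved by more than 1.5 times as follows. With 1 probe set per gene they were 3 for LHR+/LHR- (in place of 8), 0 for LH8/LHR+ (in place of 1), 2 for LH20/LHR+ (7), 1 for LH20/LH8 (4) and 2 for LH20/LHR- (9), since fewer probe sets were tested. With no fold threshold they were 3 for LH8/LHR+, 13 for LH20/LHR+, 3 for LH8/LH4 (in place of 0), 12 for LH20/LH8 and 15 for LH20/LHR-. One-way ANOVA of the 2 compared groups gave 3 for LHR+/LHR- (1.75% of all called) and 0 for LH8/LHR+ (0.756%). With it the fall of TNFSF10 202688_at with LHR kept its log2 fold change of -1.95 at an adjusted p of 0.159. With the 2 compared groups alone the count for LH8/LHR+ was 0 and the same TNFSF10 difference, -1.95, had an adjusted p of 0.107. The single call of LH8/LHR+ also became 0 with an offset of 16, with equal array medians and with no offset, the last chosen after seeing the data. For LH4/LH1, in place of 0, the count was 1 with an offset of 16 (1.06% of all called). It was 3 among the brightest probe sets (2.13% of those) and 2 with an intensity trend (1.61% of all). Leaving out 1 array at a time gave 6 to 7 calls for LHR+/LHR-, 0 to 1 for LH8/LHR+, 6 to 9 for LH20/LHR+, 0 to 1 for LH4/LH1, 0 to 1 for LH8/LH4, 4 to 5 for LH20/LH8 and 8 to 9 for LH20/LHR-. For LH8/LHR+ the 0 came without LHR+ replicate 3, LH8 replicate 2 or LH8 replicate 3, and without LH8 replicate 1 the single call was 1 down in place of 1 up, on another probe set. Beside the settings that test fewer probe sets or arrays, the cause of these moves was not tested.

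With the replicate number as a replicate block, LH8/LH4 had 1 call in place of 0 and no other count changed. Arrays of the same number in different groups did not deviate together (r of their deviations from -0.03 to 0.05, median 0.01, over 45 pairs). All probe sets entered these correlations, and noise of the dim ones can hide a shared deviation, so pairing is not excluded. Array intensity has no detection call, which limits statements on dim probe sets such as those of TNFRSF10C and TNFRSF11B, and with 3 arrays a group their number limits the precision.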

Other observations

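The array holds another 2 probe sets that list TNFRSF10C together with a second gene, LOC254896, and were therefore left out. The first lay between 108 and 209 and the second between 36.5 and 98.3 over all 18 arrays. Neither was called in any comparison, with lowest limma adjusted p of 0.192 and 0.389.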
